A study of Bos taurus and Ovis aries and Capra hircus with 18 samples.

Results

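Brain of adult sheep was set against muscle of adult sheep in 3 libraries of each tissue, lettered A, B and C, which are 6 of the 18 libraries of a study that sequenced the same pair of tissues in sheep, cattle and goat. The libraries were taken by their titles, and the read counts of all 26478 sheep gene models were used. RNA was extracted with TRIzol from frozen tissue, messenger RNA was captured on oligo(dT) beads, and cDNA was primed with random hexamers. The extraction text of the muscle samples also speaks of frozen brain. The labels name neither the brain region, the muscle, the sex, the breed nor an age beyond adult, and they do not say whether a letter stands for an animal, so that the p-values below measure only the spread between these libraries, which may be technical. The sheep identifiers carry no symbols in the files. A symbol was given to 14143 of the 26478 genes through gene models matched to cattle, and 12214 of these were tested.

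Brain tissue is built of neurons, which pass signals through vesicle release and receptor channels at synapses, and of glia, which insulate axons, clear transmitters and feed neurons. Skeletal muscle is built of long fibres packed with sarcomeres, in which an electrical signal opens calcium stores and myosin pulls on actin. Both tissues spend much ATP and draw it from partly different fuels, and many enzymes and channels exist as separate genes used by nerve and by muscle.

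Total counts ran from 25162316 to 30432512 in brain and from 43007347 to 46302643 in muscle, and 18144 to 18457 genes had a count in brain libraries against 17204 to 17402 in muscle libraries. The 10 most abundant genes took 7.76% to 8.03% of the counts in brain and 25.3% to 28.5% in muscle. Levels are given as counts per 1000000 (CPM) of the library size after scaling by trimmed mean of M-values (TMM), in the order A, B and C. A count of 3, the least taken as detection, stood for 0.0682 to 0.0827 CPM in a brain library and 0.0909 to 0.0969 CPM in a muscle library, for counting error only.

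Brain C lay apart from brain A and B. Spearman's correlation of log2 CPM over 17693 genes was 0.867 between brain C and brain A and 0.870 between brain C and brain B, against 0.988 between brain A and B and 0.985 to 0.987 among the muscle libraries. Brain C was no closer to muscle, with correlations of 0.611 to 0.614, against 0.664 to 0.669 for brain A and B. Against the 6 brain libraries of cattle and goat, over 13063 matched genes, the median correlation was 0.731 for brain C and 0.916 for each of brain A and B. Of 11095 genes with a mean of at least 5 CPM in brain, 380 were at least 4-fold above the mean of brain A and B in brain C and 1402 were at least 4-fold below it, together 16.1%. The same share was at most 0.64% when any other library was set against the remaining libraries of its tissue, and brain B differed from brain A by that much in 0.171%.

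The genes that set brain C apart were ordered by position and size. Sorted into 5 groups of 2219 genes by how many other genes start within 500 kb, the median log2 ratio of brain C to brain A and B was -0.953 in the group with the fewest neighbours and 1.03 in the group with the most. By genomic span the medians ran from 0.802 in the group of shortest genes to -1.09 in the longest, and by exonic length from 0.593 to -0.667. The ratio of brain B to brain A stayed between -0.040 and 0.073 in all 15 of these groups. By chromosome the medians lay between -0.813 on chromosome 8 and 0.845 on chromosome 14. Mitochondrially encoded genes took 2.67% of the counts in brain C, against 4.95% in brain A and 4.48% in brain B. What made this library differ was not tested, and the counts of a list are given with it, and also without it where they changed. Counts without another library are given for some lists only.

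**Figure D1:**
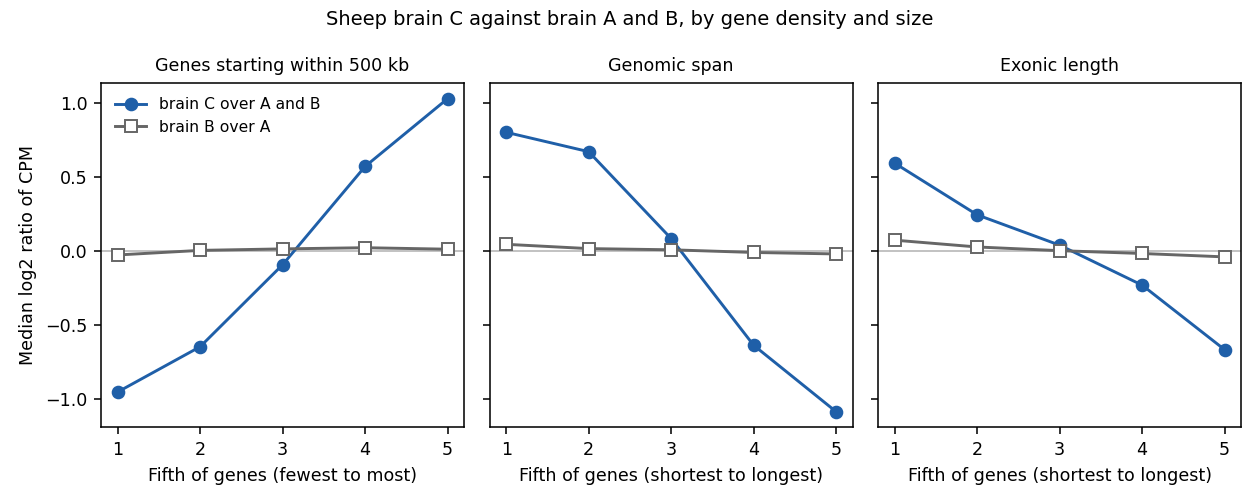
Median log2 ratio of brain C to the mean of brain A and B (filled circles) and of brain B to brain A (open squares) in 5 groups of 2219 genes each, ordered by the number of other genes starting within 500 kb, by genomic span and by exonic length. The circles run from -0.953 to 1.03 with gene density and fall with span and length, while the squares stay between -0.040 and 0.073.

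The named genes at the ends of this range show what brain C held and lacked. MAP2, a microtubule-binding protein of dendrites, had 865, 1019 and 32.7 CPM in brain, against 2.64, 4.24 and 3.42 CPM in muscle. SLC1A2, the main glutamate transporter of astrocytes, had 182, 307 and 9.04 CPM in brain, against 0.0629, 0.0606 and 0.0646 CPM in muscle. AQP4, the water channel of astrocyte endfeet, had 144, 143 and 4.85 CPM in brain, against 3.74, 5.67 and 6.3 CPM in muscle, so that brain C lay within the muscle values. Among the 10 genes furthest below were CA5A, GABRB2, SLC24A2, MAP2, PRKACB, PGM2L1, AQP4, SLC1A2 and ADCY1. The 10 furthest above were SLC34A3, TNFRSF25, GGT5, SAP25, MICALL2, WDR97, COL2A1, HSF4, CILP2 and NOXA1. COL2A1, the type II collagen chain of cartilage, had 5.57, 2.91 and 48.4 CPM in brain, against 1.35, 0.636 and 0.711 CPM in muscle. Other brain markers were well above muscle in brain C: GFAP, the filament protein of astrocytes, had 2794, 2864 and 1548 CPM in brain, against 0.566, 0.182 and 0.291 CPM in muscle. WDR97 and HSF4 were called lower only without brain C (adjusted p = 7.17e-05 and 0.000145, edgeR), and the log2 difference of SAP25 was 0.55 ± 1.07 with brain C, not called, and -2.02 ± 0.28 without it, called lower. With all libraries AQP4, CA5A, SLC24A2, COL2A1, SLC34A3, TNFRSF25, GGT5 and CILP2 were called higher in brain, and each of these calls ended when 1 muscle library or another was left out, at adjusted p of 0.0501 to 0.114 (edgeR).

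With all 6 libraries, 15616 genes were tested with edgeR's quasi-likelihood test, and a gene was called higher or lower at a Benjamini-Hochberg adjusted p under 0.05 and at least a 2-fold difference. In brain 4456 genes were higher (28.5% of those tested) and 2999 were lower (19.2%). Without brain C, 16154 genes were tested, of which 5116 were higher (31.7%) and 3928 lower (24.3%). Higher calls were shared by 4213 genes and lower calls by 2899. No gene was called in opposite directions. The median standard error of the log2 difference was 0.478 with brain C and 0.217 without it. Of the genes called higher, 4375 had all brain libraries above all muscle libraries, and of those called lower, 2997 had all brain libraries below all muscle libraries. Among all genes tested such separation was seen for 5443 (34.9%) and 4879 (31.2%).

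The balance between the directions depended on scaling. The median log2 difference of brain minus muscle over all genes tested was 0.173 with TMM scaling and 1.12 with library totals alone, under which 7102 genes were called higher and 1414 lower, 83.4% of all calls against 59.8% with TMM. Changes below are relative to the TMM scaling, and no median was subtracted. The medians of 6 lists described below, those of branched-chain amino acid breakdown, ribosomal proteins, the proteasome, chaperones, the clock and the interferon response, were below 0 with TMM and above 0 with library totals alone. List medians given below are set beside 0.173 with brain C and 0.075 without it. Counts of genes called in a list stand beside 28.5% higher and 19.2% lower of all genes tested, and 31.7% and 24.3% without brain C. A gene with no count in a whole tissue has no finite fold, so that its fold is given as a lower bound against 3 counts over that tissue, and list medians are repeated with such genes at their bound where that moves them.

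Per kilobase of exon, the most abundant of the genes with a symbol called higher in brain were PTGDS, NRGN, APOE, CLU, S100B, MT3, CST3, ALDOC, CKB, GFAP, PPIA and CFL1. Only genes without overlap between the brain and the muscle libraries were ranked. PTGDS, the prostaglandin D synthase that is secreted into cerebrospinal fluid, had 1345, 2068 and 5803 CPM in brain, against 23.1, 32.5 and 11.9 CPM in muscle. NRGN, a calmodulin-binding protein of dendritic spines, had 1642, 1886 and 4454 CPM in brain, against 0.346, 0.606 and 0.582 CPM in muscle, a log2 difference of 12.34 ± 0.73 (SE; adjusted p = 7.3e-05, edgeR). APOE and CLU, the lipid carriers made by astrocytes, reached 2042, 2135 and 5392 CPM and 2969, 3350 and 6081 CPM in brain, against 56.1, 65.2 and 46.6 CPM and 247, 277 and 239 CPM in muscle. Brain C was the highest library for each of these 4 genes, and the lowest brain value was still above every muscle value. CST3, the secreted protease inhibitor cystatin C, was the 1 gene of the 12 whose call ended without brain C: its log2 difference was 1.62 ± 0.49 with that library (adjusted p = 0.0301) and 0.92 ± 0.19 without it, short of 2-fold (adjusted p = 0.00362, edgeR). It also ended without any 1 of the muscle libraries, at adjusted p of 0.0777 to 0.115.

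In muscle the corresponding genes with a symbol, all lower in brain, were ACTA1, CKM, TNNC2, MYL11, MB, TNNI2, GAPDH, TNNT3, MYL1, MYH1, TPM1 and TPM2. ACTA1, the actin of the thin filaments of skeletal muscle, had 6.66, 2.02 and 12.7 CPM in brain, against 107500, 93720 and 114800 CPM in muscle. CKM, the muscle creatine kinase, had 0, 0.705 and 2.51 CPM in brain, against 48180, 44830 and 50160 CPM in muscle. MB, the oxygen store myoglobin, had 1.49, 1.27 and 2.45 CPM in brain, against 11240, 10250 and 10080 CPM in muscle. Brain C had the highest brain value for each of these 3 genes. These marks are those of skeletal muscle, and the labels' tissue names were met by the defining genes of both tissues.

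Among genes with a symbol, the widest folds with a level of at least 50 CPM belonged to synaptic and secretory genes on one side and to fibre genes on the other. SNCB, the synaptic protein beta-synuclein (chromosome 5, 38352778 to 38360845, minus strand), had 305, 266 and 1107 CPM in brain and no count in muscle, at least 17150-fold higher (adjusted p = 0.000837, edgeR). CHGB, a granin of secretory vesicles, was at least 13320-fold higher in brain. SLC12A5, the neuronal chloride exporter KCC2, was at least 8998-fold higher, MLC1, an astrocyte membrane protein, at least 7062-fold, GPR162, an orphan receptor, at least 5222-fold and LAMP5, a membrane protein of certain neurons, at least 4271-fold. SNAP25, the membrane anchor of vesicle fusion (chromosome 13, 3222977 to 3309427, plus strand), had 1491, 1243 and 406 CPM in brain and 1 count in all of muscle, a ratio of 102000-fold (95% interval 18300 to 4030000) for counting error only.

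On the muscle side PPP1R3A, which tethers protein phosphatase to glycogen (chromosome 4, 61091497 to 61130541, plus strand), had no count in brain and 1840, 1622 and 1575 CPM in muscle, at least 66030-fold lower in brain (adjusted p = 6.38e-05, edgeR). VGLL2, a cofactor of muscle gene transcription, had no count in brain and 162, 175 and 243 CPM in muscle, at least 7576-fold lower. MYOT, the Z-disc protein myotilin, had 3 counts in all of brain, all in brain C, and 2957, 3629 and 5027 CPM in muscle. MYH1, MYL1, MYPN, MYH4 and CKM made up the rest of the group. MYH1 and MYH4 are neighbours on chromosome 11 with near-identical sequence, so that reads may have been split between them.

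**Figure D2:**
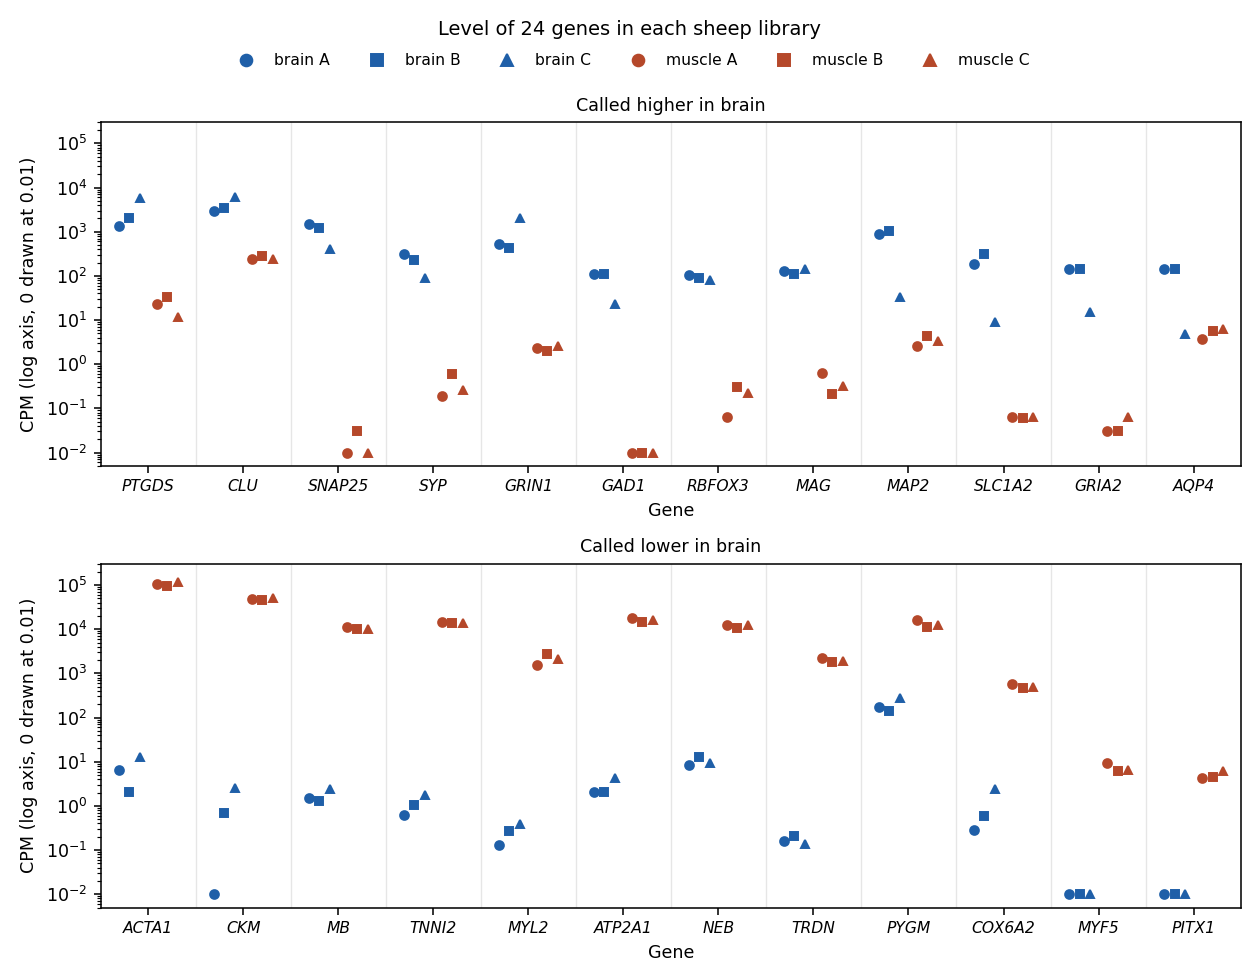
CPM in each library on a log axis for 12 genes higher in brain and 12 genes lower in brain, with brain A, B and C left of muscle A, B and C. Values under 0.01 CPM, all of them 0, are drawn at 0.01. Brain C sits with brain A and B for CLU and RBFOX3 and far below them for MAP2, GRIA2 and AQP4.

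All 10 pan-neuronal markers that were tested were higher in brain, with a median log2 difference of 9.83. RBFOX3, the nuclear marker NeuN, had 107, 90.2 and 79.3 CPM in brain, against 0.0629, 0.303 and 0.226 CPM in muscle, a log2 difference of 8.84 ± 0.61 (SE; adjusted p = 0.000109, edgeR). ENO2, the neuronal enolase, had 540.1, 480.3 and 805 CPM in brain, against 0.22, 0.424 and 0.194 CPM in muscle. STMN2, a growth cone protein, had 291, 193 and 171 CPM in brain, against 2.36, 3.24 and 2.04 CPM in muscle. The 3 brain libraries lay above all muscle libraries for each of these genes. In bulk tissue, fewer cells of a type and less RNA per cell cannot be told apart, here and below.

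Excitatory markers were higher in 7 of 9 tested (median 11.1, or 8.64 with genes without a count in muscle at their bound). SLC17A7, the vesicular glutamate transporter VGLUT1, had 502, 410.4 and 337 CPM in brain, against 0, 0.0606 and 0.0323 CPM in muscle. FEZF2, a transcription factor of deep cortical neurons, had 7.43, 13.5 and 16.6 CPM in brain and no count in muscle, at least 399-fold higher. NEUROD2 and LDB2 were not called, with log2 differences of 0.23 ± 0.70 and 0.79 ± 0.30. Inhibitory markers were higher in 10 of 11 (median 10.8, or 8.43 at the bound). GAD1, which makes GABA from glutamate, had 108, 108 and 23.4 CPM in brain and no count in muscle, at least 2617-fold higher. SLC32A1, which loads GABA into vesicles, had 61.3, 58.4 and 53.3 CPM in brain and no count in muscle, at least 1844-fold higher. DLX1, a transcription factor of interneurons, had 10.8, 11.5 and 9.98 CPM in brain and no count in muscle. LHX6 was not called. Its log2 difference was 0.68 ± 0.45 with brain C and 0.97 ± 0.28 without it.

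The machinery of transmitter release was higher throughout, in 12 of 12 genes tested with a median log2 difference of 9.09. STX1A, the plasma membrane syntaxin of the fusion complex, had 138, 140.1 and 235 CPM in brain, against 0.0314, 0.0909 and 0 CPM in muscle. CPLX1, a complexin that clamps fusion, had 179, 158 and 137 CPM in brain, against 0.0629, 0.121 and 0.226 CPM in muscle, and a log2 difference of 10.14 ± 0.54 (SE; adjusted p = 6.15e-05, edgeR). SYP, an integral protein of the vesicle, had 318, 225 and 89.7 CPM in brain, against 0.189, 0.606 and 0.259 CPM in muscle. The list median of the log2 ratio of brain C to brain A and B was -1.67, with 2 of 12 members above. All 12 calls were present without brain C.

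Receptors on the receiving side were higher in every gene tested, 11 of 11 ionotropic glutamate receptor subunits (median 9.37, or 8.85 at the bound) and 12 of 12 GABA receptor subunits (median 8.44). GRIN1, the obligatory NMDA receptor subunit, had 528, 421 and 2034 CPM in brain, against 2.29, 2 and 2.62 CPM in muscle. GRIA2, the AMPA subunit that limits calcium entry, had 140.3, 141 and 15 CPM in brain, against 0.0314, 0.0303 and 0.0646 CPM in muscle. Brain C was thus the highest brain library for GRIN1 and the lowest for GRIA2. GABRA5, an extrasynaptic GABA subunit of hippocampus, had 32, 41.8 and 19.4 CPM in brain and no count in muscle, at least 1015-fold higher. GABBR1, a subunit of the metabotropic GABA receptor, had 1019, 959 and 1455 CPM in brain, against 22.1, 31.8 and 22 CPM in muscle, and a log2 difference of 5.50 ± 0.36 (SE; adjusted p = 8.54e-05, edgeR). GABRB2, a common synaptic GABA subunit, differed widely among the brain libraries, with 62, 51.9 and 0.799 CPM in brain, against 0.251, 0.0303 and 0 CPM in muscle. Its call held both with brain C (adjusted p = 0.00923) and without it (adjusted p = 1.58e-05, edgeR).

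Postsynaptic scaffold genes were higher in 7 of 9 (median 5.98), in 8 of 9 without brain C, and in 5 without muscle B or muscle C. DLG4, the scaffold PSD-95, had 439.8, 547 and 636 CPM in brain, against 4.9, 4.51 and 5.07 CPM in muscle, a log2 difference of 6.81 ± 0.32 (SE; adjusted p = 4.34e-05, edgeR). SHANK1, which links receptors to actin, had 579, 599.9 and 259 CPM in brain, against 0.157, 0.212 and 0.259 CPM in muscle. CAMK2B, a calmodulin-dependent kinase that muscle also uses, missed the 2-fold threshold with brain C at 0.97 ± 0.27 and passed it without at 1.08 ± 0.18. HOMER1 was not called, with a log2 difference of -1.43 ± 0.71. Among sodium and potassium channels of nerve 11 of 13 were higher (median 5.14). KCNQ3, a subunit of the M-current channel, had 96.7, 111 and 124 CPM in brain, against 0.0314, 0.0303 and 0.0323 CPM in muscle, with brain C level with brain A and B. SCN2A, a sodium channel of axons, had 157, 132 and 9.43 CPM in brain, against 0.126, 0.0606 and 0 CPM in muscle. The channel list had the lowest median log2 ratio of brain C to brain A and B among these neuronal lists, -2.25, with 2 of 13 members above.

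Axonal cytoskeleton genes were higher in 13 of 14 (median 6.98). CRMP1, which guides growth cones, had 205, 162 and 208 CPM in brain, against 0.0314, 0 and 0.0646 CPM in muscle. STMN1, a microtubule destabiliser, had 416, 368 and 602 CPM in brain, against 9.33, 9.21 and 11.3 CPM in muscle, a log2 difference of 5.54 ± 0.34 (SE; adjusted p = 7.43e-05, edgeR). MAPT, the microtubule protein tau, was not called: it had 215, 224 and 199 CPM in brain, against 146, 134 and 169 CPM in muscle, and a log2 difference of 0.51 ± 0.23. Neuropeptides and granins were higher in 8 of 8 (median 10.3). CHGA had 613, 340.2 and 1339 CPM in brain, against 0.283, 0.303 and 0.259 CPM in muscle, and SCG3, which sorts granins into vesicles, had 224, 199 and 205 CPM in brain, against 0.723, 1.12 and 1.13 CPM in muscle. Neurotrophins and their receptors went both ways, 2 higher and 2 lower of 7, and 3 higher and 3 lower of 8 without brain C. With all libraries these counts lay near the shares of all genes tested, 28.5% higher and 19.2% lower. NTRK2 and NTRK3, the receptors of BDNF and NT-3, were higher, with log2 differences of 4.38 ± 0.95 and 3.34 ± 0.37. GDNF, a trophic factor that muscle makes for motor neurons, had 0.398, 0.227 and 0.11 CPM in brain, against 1.63, 2.85 and 2.75 CPM in muscle.

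**Figure D3:**
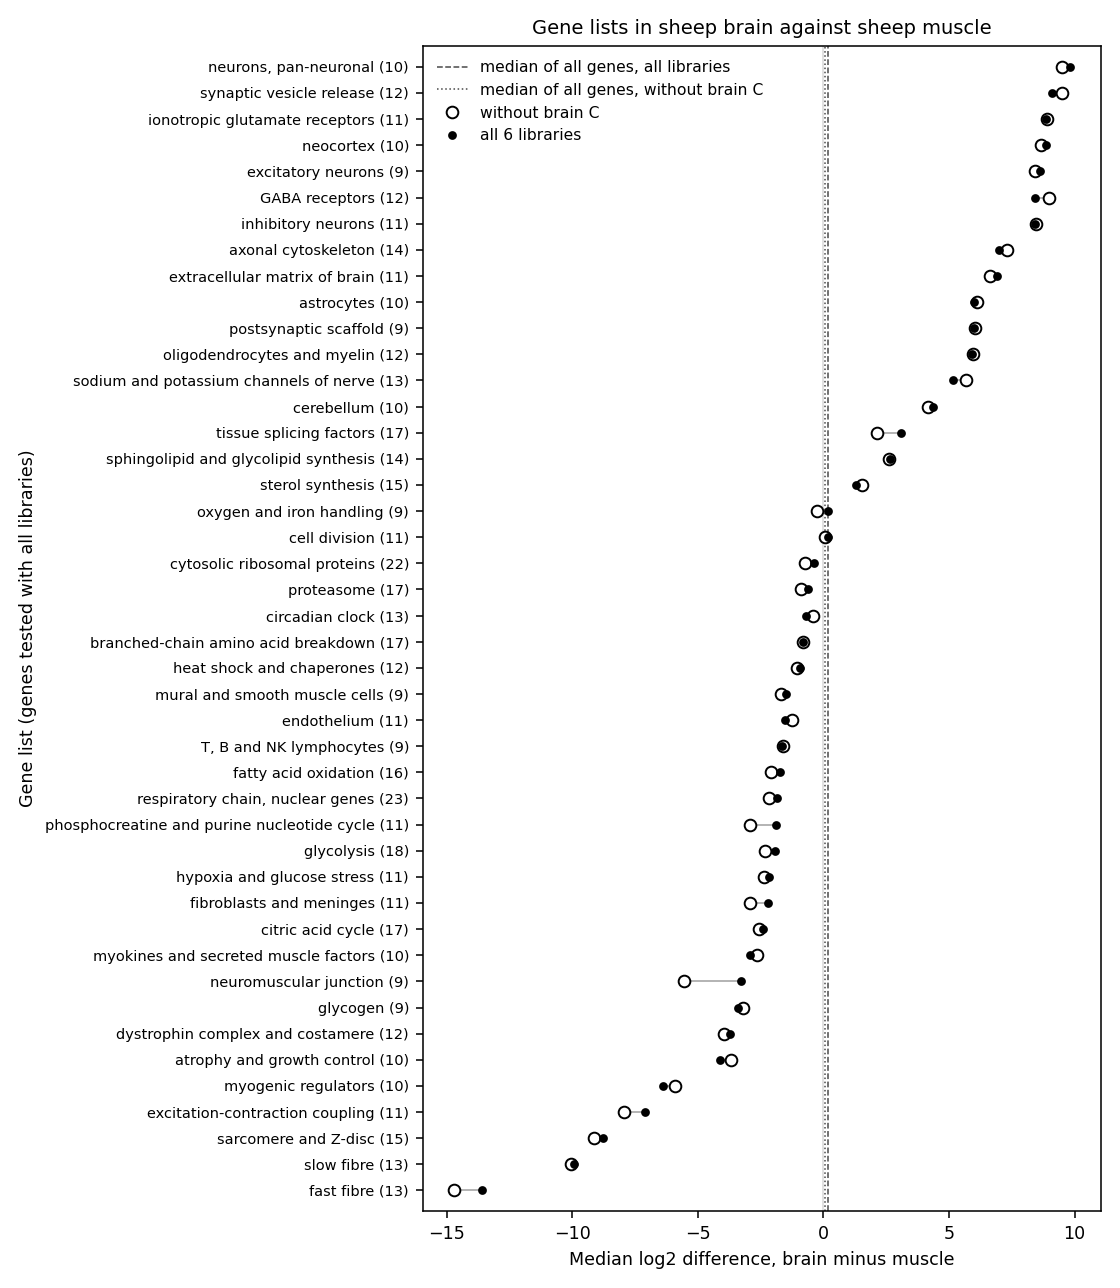
Median log2 difference of brain minus muscle for the 44 gene lists with at least 9 genes tested, with all 6 libraries (filled circles) and without brain C (open circles), genes without a count in 1 tissue taken at their bound. Dashed and dotted lines mark the medians over all genes tested, 0.173 and 0.075. Neuronal and synaptic lists lie above 5 and the fibre and sarcomere lists below -8. The widest gap between the circles of a list, 2.26, is that of the neuromuscular junction, at -3.28 and -5.55, and the next widest is 1.12.

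Glial lists were higher as well. Of 10 astrocyte markers 9 were called higher (median 6.01), and all 10 without brain C. ALDOC, the brain aldolase, had 1323, 1467 and 2921 CPM in brain, against 0.628, 0.697 and 0.452 CPM in muscle. GLUL, which turns glutamate into glutamine in both tissues, was the marker that was called only without brain C: it had 1082, 1714 and 333 CPM in brain, against 285, 402 and 629 CPM in muscle. Its log2 difference was 1.25 ± 0.61 with brain C (adjusted p = 0.13) and 1.67 ± 0.35 without it (adjusted p = 0.00472, edgeR). Oligodendrocyte and myelin markers were higher in 12 of 12 (median 5.92). MAG, a myelin adhesion protein, had 128, 112 and 146 CPM in brain, against 0.628, 0.212 and 0.323 CPM in muscle. MYRF, which drives myelination, had 69, 69.4 and 56.3 CPM in brain, against 0.314, 0.727 and 0.291 CPM in muscle, a log2 difference of 7.18 ± 0.51 (SE; adjusted p = 0.000122, edgeR).

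Precursor and immune markers were more even. Of 5 markers of oligodendrocyte precursors 1 was higher and 1 lower, and 2 were higher without brain C. PTPRZ1, a receptor phosphatase, was higher with 283, 226 and 88.8 CPM in brain, against 1.13, 0.424 and 0.485 CPM in muscle, and SOX6, a transcription factor that also acts in fast fibres, was lower with 5.07, 6.14 and 0.413 CPM in brain, against 68.6, 55.4 and 52.4 CPM in muscle. Of 6 microglia and macrophage markers 4 were higher (median 1.79). CSF1R, the growth factor receptor of the lineage, had 161, 185 and 112 CPM in brain, against 15.9, 17.6 and 12.9 CPM in muscle, a log2 difference of 3.31 ± 0.32 (SE; adjusted p = 0.000299, edgeR). TREM2, a lipid receptor of microglia, had 14, 17.4 and 21.6 CPM in brain, against 0.0629, 0.0606 and 0.0646 CPM in muscle. CD163, a scavenger receptor of tissue macrophages, was lower, with 0.345, 1.14 and 0.772 CPM in brain, against 2.45, 2.7 and 4.39 CPM in muscle, a call that ended without muscle C (adjusted p = 0.072, edgeR). Of 9 lymphocyte markers 5 were lower in brain and none higher, each under 10 CPM in every library, and 3 were lower without any 1 of the muscle libraries. CD3D, a chain of the T cell receptor complex, had 0.557, 0.341 and 0.689 CPM in brain, against 2.51, 3.61 and 2.62 CPM in muscle. The matrix of brain, by contrast, was higher in 10 of 11 genes (median 6.92). BCAN, the proteoglycan brevican, had 493, 488 and 772 CPM in brain, against 0.22, 0.0606 and 0.0969 CPM in muscle, and NCAN, neurocan, had 204, 206 and 34.6 CPM in brain, against 0, 0.0303 and 0.0323 CPM in muscle.

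Markers of vessel walls were mixed. Of 11 endothelial markers 3 were higher and 6 lower (median -1.55). The 3 that were higher act at the blood-brain barrier. SLC2A1, the glucose transporter GLUT1, had 227, 215 and 191 CPM in brain, against 3.58, 4.97 and 2.36 CPM in muscle, a log2 difference of 5.86 ± 0.40 (SE; adjusted p = 0.000101, edgeR). MFSD2A, which carries omega-3 lipids, had 20.8, 21.2 and 39.1 CPM in brain, against 0, 0.0606 and 0.0646 CPM in muscle. ABCB1, a drug efflux pump, had 41.9, 29 and 11.5 CPM in brain, against 2.67, 4.94 and 5.69 CPM in muscle. PECAM1, a junction protein of all endothelium, was lower, with 31.4, 23.7 and 15.8 CPM in brain, against 233, 229.8 and 239 CPM in muscle, and KDR, the main VEGF receptor, was lower with 46.8, 33.3 and 20.5 CPM in brain, against 158, 166 and 126 CPM in muscle. Mural and smooth muscle markers were lower in 5 of 9, in 8 of 9 without brain C, in 3 without brain B or muscle A and in 2 without muscle B or muscle C. Among fibroblast and meningeal markers 8 of 11 were lower, and the 2 that were higher, PTGDS and SLC6A13, are genes of the meninges. Without brain C 3 were higher, and without muscle B 5 were lower. COL3A1, a collagen of connective tissue, had 14.9, 6.66 and 7.94 CPM in brain, against 569, 540.3 and 357 CPM in muscle. SLC6A13, a GABA and taurine transporter, had 18.9, 14.5 and 65.7 CPM in brain, against 0.0629, 0.121 and 0.0646 CPM in muscle.

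Some markers stood for cells that muscle holds alongside its fibres. Adipocyte markers were lower in brain in 6 of 8 (median -4.79). ADIPOQ, the fat hormone adiponectin, had 0.371, 0.114 and 0.0827 CPM in brain, against 35.9, 102 and 18.6 CPM in muscle, and PLIN4, a coat protein of lipid droplets, had 0.0796, 0.318 and 0.0551 CPM in brain, against 124, 153 and 80.4 CPM in muscle. Muscle B was the highest library for both. Among Schwann cell markers S100B and SOX10, which oligodendrocytes and astrocytes share with Schwann cells, were higher. Of 6 satellite cell markers 4 were lower, and without brain C 1 was also higher. MYF5, a regulator of muscle precursors, had no count in brain and 9.37, 6.15 and 6.37 CPM in muscle, at least 287-fold lower. MYOD1 had 0.053, 0.159 and 0.882 CPM in brain, against 146, 108 and 40.2 CPM in muscle, highest in muscle A. HBA, the one red cell marker tested, was low in both tissues, with 1.09, 0.478 and 1.85 CPM in brain, against 0.22, 0.545 and 0.0969 CPM in muscle.

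The brain libraries carried forebrain markers. All 10 neocortex markers tested were higher in brain (median 10.4, or 8.85 at the bound): CUX2, a factor of upper cortical layers, had 93.6, 85.6 and 26 CPM in brain, against 0.0314, 0.151 and 0.194 CPM in muscle. Striatal markers were higher in 5 of 5, hippocampal markers in 5 of 8 and thalamic markers in 5 of 7. CALB1 of the hippocampal list and RORA of the thalamic list were lower, with log2 differences of -1.58 ± 0.43 and -2.71 ± 0.75. Each of these calls ended without some single libraries. Markers of midbrain and brainstem monoamine neurons were higher in 2 of 6 and lower in 2, and without brain C higher in 3 of 7 and lower in 2. DRD2, a dopamine receptor, stood at 2.28, 1.96 and 2.65 CPM in brain, against 0, 0.0303 and 0 CPM in muscle, and PPP1R1B, the striatal phosphoprotein DARPP-32, stood at 44.5, 35.2 and 63.5 CPM in brain, against 3.61, 9.33 and 1.97 CPM in muscle. Cerebellar markers were higher in 6 of 10 and lower in 3, and higher in 7 without brain C. PCP4, a calmodulin regulator also found in cortex, had 56.1, 39.8 and 145 CPM in brain, against 0.0943, 0 and 0 CPM in muscle, while ZIC1, a factor of cerebellar granule cells, had 4.4, 3.23 and 3.94 CPM in brain, against 44.7, 36.6 and 32.3 CPM in muscle, and was lower. Of the hypothalamic peptides, AVP had 2.79, 3.46 and 6.89 CPM in brain, against 0.0314, 0.0303 and 0.0323 CPM in muscle, and HCRT had 1.17, 0.5 and 1.49 CPM in brain and no count in muscle. Of 5 choroid plexus markers tested 4 were higher and 1 was lower, and 3 were higher without any 1 of the muscle libraries. KCNJ13 had 5.84, 9.12 and 7.75 CPM in brain, against 0, 0.0606 and 0 CPM in muscle. TTR, the thyroid hormone carrier of the plexus, had 42.9, 0.546 and 1.19 CPM in brain, against 0, 0.0606 and 0.0969 CPM in muscle, highest in brain A. Its call ended without any 1 of the muscle libraries, at adjusted p of 0.0688 to 0.0736 (edgeR). The median log2 ratio of brain C to brain A and B was -0.612 over the neocortex list, -0.454 over the hippocampus list, 0.339 over the striatum list, -1.72 over the thalamus list, 0.441 over the hypothalamus list and -0.013 over the cerebellum list.

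The position genes that were tested went in the other direction. All 4 HOX genes and all 5 limb position genes tested were lower in brain. Of 9 limb position genes with a symbol, 5 passed the count filter. Apart from EYA1, the genes tested had at most 0.106 CPM in any brain library. They entered the test through their counts in muscle and could only be called lower, so these counts of calls are a description. HOXD9 had no count in brain and 65.7, 50 and 39.1 CPM in muscle, at least 2032-fold lower (adjusted p = 0.000201, edgeR). HOXB2, a hindbrain gene, had 0.106, 0.0682 and 0.0551 CPM in brain, against 8.93, 7.36 and 10.8 CPM in muscle. PITX1, which specifies the hindlimb, had no count in brain and 4.18, 4.49 and 6.01 CPM in muscle, at least 192-fold lower. SIM1 and SLC6A4, listed here as markers of hypothalamus and serotonin neurons, were lower in brain too, with 0, 0.0682 and 0 CPM and 0.0796, 0.182 and 0.331 CPM in brain, against 6.76, 3.54 and 2.13 CPM and 2.36, 5.36 and 6.46 CPM in muscle.

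Fibre genes made the deepest contrast. Of 13 fast fibre genes 12 were lower in brain (median -13.6). TNNI2, the fast inhibitory troponin, had 0.636, 1.02 and 1.74 CPM in brain, against 14820, 13890 and 14080 CPM in muscle, a log2 difference of -13.62 ± 0.64 (SE; adjusted p = 4.62e-05, edgeR). ATP2A1, the calcium pump of fast fibres, had 2.04, 2.05 and 4.36 CPM in brain, against 18090, 14890 and 16330 CPM in muscle. PVALB, a calcium buffer of fast fibres in rodents and of interneurons, went the other way, with 29, 35.2 and 67.6 CPM in brain, against 2.64, 0.424 and 0.0969 CPM in muscle, and was higher. Of 13 slow fibre genes 12 were lower (median -9.95), and 13 without brain C. MYL2, the slow regulatory light chain, had 0.133, 0.273 and 0.386 CPM in brain, against 1534, 2782 and 2123 CPM in muscle. MYBPC1, the slow myosin-binding protein, had 5.07, 5.84 and 6.39 CPM in brain, against 4570, 5904 and 6686 CPM in muscle. MYH7B, whose call appeared without brain C, had 24.9, 25.8 and 89 CPM in brain, against 47.7, 179.8 and 106 CPM in muscle. In the brain libraries the summed fast fibre genes came to 49.8, 66.7 and 159 CPM, against 248500, 182200 and 191900 CPM in muscle. PVALB alone gave 29, 35.2 and 67.6 CPM of these brain sums. Of the 13 genes 12 were above the mean of brain A and B in brain C.

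Sarcomere and Z-disc genes were lower in 15 of 15 (median -8.77). NEB, the ruler of the thin filament, had 8.54, 13 and 9.51 CPM in brain, against 12500, 10920 and 12490 CPM in muscle, a log2 difference of -10.18 ± 0.42 (SE; adjusted p = 3.43e-05, edgeR). LDB3, a Z-disc adaptor, had 4.38, 5.39 and 3.97 CPM in brain, against 9390, 8247 and 9340 CPM in muscle. Genes that couple excitation to contraction were lower in 10 of 11 (median -7.11). TRDN, the calcium release anchor triadin, had 0.159, 0.205 and 0.138 CPM in brain, against 2174, 1826 and 1887 CPM in muscle, and CACNG1, a subunit of the muscle calcium channel, had 0.0265, 0.091 and 0.165 CPM in brain, against 282, 226 and 163 CPM in muscle. FKBP1A, which binds calcium release channels of both tissues, was the exception and higher, with 297, 294 and 411 CPM in brain, against 117, 112 and 106 CPM in muscle. In the dystrophin complex 9 of 12 genes were lower, or 10 without brain C, and DTNB, the dystrobrevin of neurons, was higher with 40.3, 33.3 and 109 CPM in brain, against 6, 5.15 and 4.36 CPM in muscle. TRIM72, which patches torn membranes of muscle, had 0.0265, 0.0455 and 0.0276 CPM in brain, against 163, 222 and 305 CPM in muscle.

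At the neuromuscular junction 5 of 9 genes were lower and 2 were higher. CHRNE, the adult acetylcholine receptor subunit, had 2.15, 2.27 and 6.73 CPM in brain, against 169.5, 260.2 and 385 CPM in muscle, and CHRNG, the fetal subunit, had 0.053, 0.0227 and 0.0827 CPM in brain, against 3.42, 0.909 and 1.78 CPM in muscle. ACHE, which splits acetylcholine, and AGRN, which clusters its receptors, were higher, with 12.7, 20.7 and 51.8 CPM and 151, 123 and 170.2 CPM in brain, against 4.05, 2.3 and 2.75 CPM and 42, 40.1 and 35.9 CPM in muscle. LRP4, the agrin receptor, was called higher only without brain C, at 1.87 ± 0.24 (adjusted p = 0.000332, edgeR). Myogenic regulators were lower in 8 of 10 (median -7.63, or -6.41 at the bound), and in 9 without brain C. MYOG, which drives fusion into fibres, had 0.0265, 0 and 0.165 CPM in brain, against 153, 68.9 and 29.2 CPM in muscle, and SIX4 had 0.477, 0.523 and 0.11 CPM in brain, against 66.1, 56.7 and 41.9 CPM in muscle. MYOD1 and MYOG were several fold higher in muscle A than in muscle C. MEF2A and MEF2C, which neurons also express, were not called, with log2 differences of -1.83 ± 0.99 and -1.50 ± 0.82, and MEF2A was called lower without brain C at -1.27 ± 0.21. Genes of atrophy and growth control were lower in 8 of 10. TRIM63, a ubiquitin ligase of wasting muscle, had 0.106, 0.227 and 0.413 CPM in brain, against 126, 213 and 331 CPM in muscle. CAPN3, the muscle calpain, had 6.92, 6.75 and 14.9 CPM in brain, against 1721, 1862 and 1783 CPM in muscle, and MSTN, which restrains muscle growth, had 1.72, 0.887 and 0.386 CPM in brain, against 59.4, 41.6 and 9.98 CPM in muscle.

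Among secreted muscle factors 5 of 10 were lower and 1 was higher. VEGFA, the vessel growth factor, had 24.1, 18.8 and 11.1 CPM in brain, against 403, 362 and 529.5 CPM in muscle, a log2 difference of -4.58 ± 0.40 (SE; adjusted p = 0.000227, edgeR). IL15, a cytokine, had 0.265, 0.25 and 0.358 CPM in brain, against 6.91, 8.21 and 7.53 CPM in muscle. FNDC5, the precursor of irisin, was higher, with 14.9, 13 and 9.29 CPM in brain, against 2.77, 2.82 and 3.98 CPM in muscle.

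Energy genes went both ways, often in pairs of isoforms. Of 18 glycolytic genes 8 were higher and 10 lower, and none was left without a call. ENO2, the neuronal enolase given above, was higher and ENO3, the muscle enolase, was lower, with 0.769, 0.705 and 1.82 CPM in brain, against 8583, 6021 and 6719 CPM in muscle. PGAM2, the muscle mutase, was lower with 3.87, 5.87 and 8.46 CPM in brain, against 3788, 3279 and 2793 CPM in muscle. PFKM, the muscle phosphofructokinase, was lower at -2.90 ± 0.25, while PFKP and PFKL, the platelet and liver forms, were higher at 3.41 ± 0.40 and 1.79 ± 0.41 on the log2 scale. The call of PFKL ended without muscle A or muscle C (adjusted p = 0.0541 and 0.0547, edgeR). LDHB, which favours lactate use, was higher with 679, 642 and 880.5 CPM in brain, against 89.2, 123 and 106 CPM in muscle, and LDHA, which favours lactate formation, was lower with 63.5, 84.9 and 85.2 CPM in brain, against 7158, 5437 and 5271 CPM in muscle. Glycogen genes were split too, 2 higher and 6 lower of 9, and 3 higher and 6 lower without brain C. PYGB, the brain phosphorylase, had 323, 347 and 571 CPM in brain, against 11.3, 11.4 and 8.66 CPM in muscle, and PYGM, the muscle phosphorylase, had 169.5, 143 and 272 CPM in brain, against 16280, 11500 and 12680 CPM in muscle. In the phosphocreatine system CKB, the brain creatine kinase, was higher with 1249, 1254 and 2766 CPM in brain, against 7.32, 10.2 and 10.5 CPM in muscle. CKMT2, the mitochondrial kinase of muscle, was lower with 0.477, 1.02 and 2.26 CPM in brain, against 2255, 1791 and 2510 CPM in muscle. AMPD1, the muscle AMP deaminase, had 0, 0.091 and 0.0551 CPM in brain, against 1444, 1422 and 1176 CPM in muscle. GATM, which begins creatine synthesis, was higher at 3.61 ± 0.49.

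**Figure D4:**
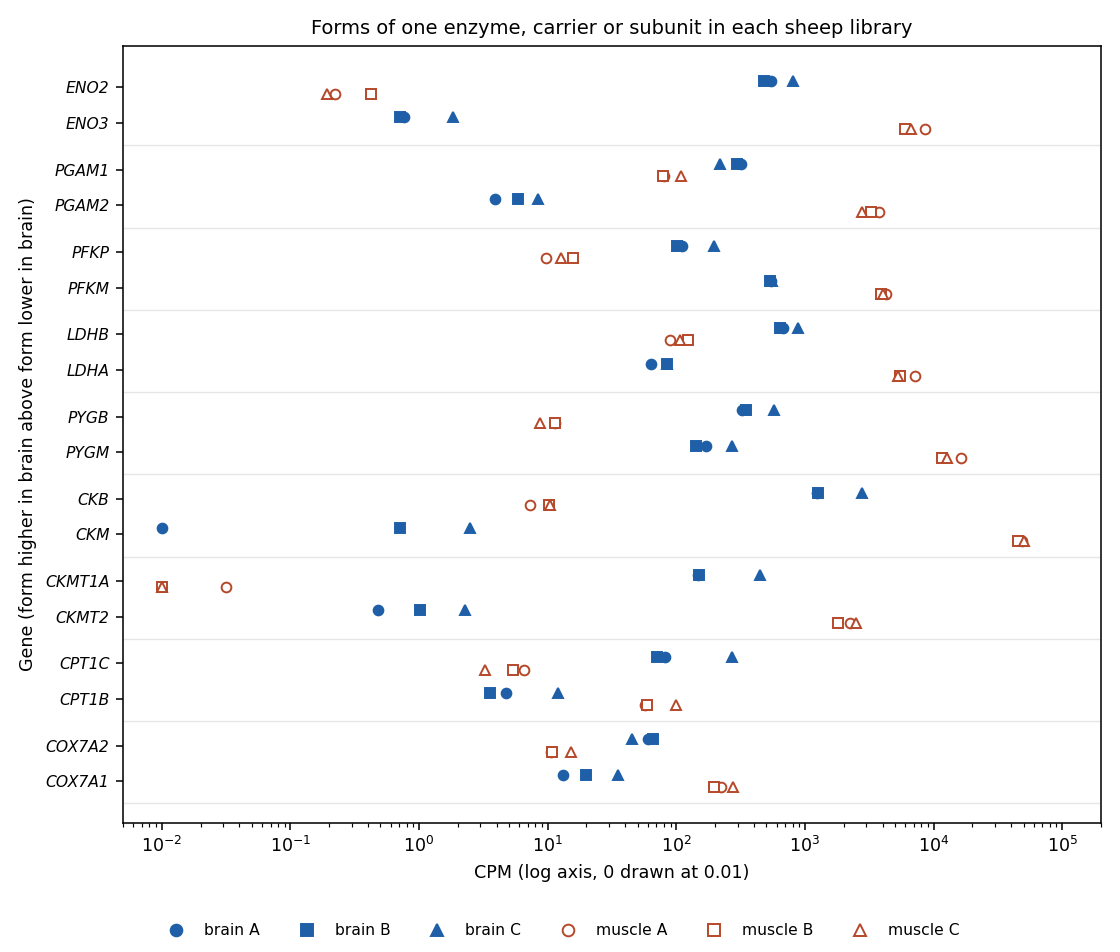
CPM in each library on a log axis for 9 pairs of genes coding for forms of one enzyme, carrier or subunit, with the form higher in brain above the form lower in brain, and brain A, B and C drawn as filled symbols beside muscle A, B and C as open ones. In 6 pairs, those of ENO3, PGAM2, LDHA, PYGM, CKM and CKMT2, every muscle library lies more than 10-fold above every brain library for the muscle form. A value of 0 is drawn at 0.01.

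Oxidative genes were lower in brain as a body. Citric acid cycle genes were lower in 16 of 17 (median -2.43) and nuclear genes of the respiratory chain in 20 of 23 (median -1.83), or 22 of 23 without brain C. Without any 1 of the other libraries, 16 to 18 genes of the respiratory chain were lower. MDH2, the mitochondrial malate dehydrogenase, had 189.9, 182 and 302 CPM in brain, against 1814, 1262 and 1729 CPM in muscle. SDHC, a membrane anchor of succinate dehydrogenase, had 42.8, 45.7 and 45.5 CPM in brain, against 359, 281 and 364 CPM in muscle, a log2 difference of -2.91 ± 0.25 (SE; adjusted p = 0.000201, edgeR). UQCRC2, a core protein of complex III, had 118, 114 and 117 CPM in brain, against 827, 764 and 924 CPM in muscle. For SDHC and UQCRC2 brain C lay level with brain A and B, and for MDH2 it was the highest brain library. COX6A2, the heart and muscle form of a complex IV subunit, had 0.292, 0.591 and 2.43 CPM in brain, against 583, 464 and 489.7 CPM in muscle, and COX7A2, the form used outside muscle, was the 1 chain gene that was higher, with 60.3, 65.2 and 45.4 CPM in brain, against 10.6, 10.7 and 15.1 CPM in muscle. Mitochondrially encoded transcripts took 4.95%, 4.48% and 2.67% of counts in brain, against 2.56%, 2.92% and 2.63% in muscle, so that brain A and B lay above muscle and brain C within it. This share was not tested. Fatty acid oxidation was lower in 12 of 16 genes (median -1.72), or 13 without brain C and 9 without muscle C. CPT1C, the neuronal form of the carnitine transferase, was higher with 82, 71 and 269 CPM in brain, against 6.5, 5.33 and 3.26 CPM in muscle, and CPT1B, the muscle form, was lower with 4.72, 3.55 and 12 CPM in brain, against 57.5, 59.1 and 100.1 CPM in muscle. CPT1A was called higher although brain C, at 4.66 CPM, lay within the muscle values of 3.71, 3 and 5.72 CPM, and that call ended without any 1 of the other 5 libraries, at adjusted p of 0.0779 to 0.143 (edgeR).

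Lipid synthesis leaned to brain. Sterol synthesis genes were higher in 7 of 15 and lower in 1 (median 1.28), and higher in 9 without brain C and in 4 without any 1 of the muscle libraries. SQLE, which oxidises squalene, had 83.9, 70.0 and 50.4 CPM in brain, against 9.37, 9.54 and 3.59 CPM in muscle, and NSDHL, a later step, had 45.4, 40.8 and 48.6 CPM in brain, against 5.06, 6.88 and 6.92 CPM in muscle. FDFT1, the squalene synthase, was lower, at -1.08 ± 0.32, a call that ended without any 1 of the libraries but brain C, at adjusted p of 0.0632 to 0.0988 (edgeR). Sphingolipid and glycolipid genes were higher in 7 of 14 and lower in none (median 2.63), and higher in 9 without brain C. CERS6, a ceramide synthase, was one of those called only without brain C, at 2.45 ± 0.21 (adjusted p = 4.3e-05, edgeR). FA2H, which hydroxylates myelin lipids, had 11, 7.92 and 11.9 CPM in brain, against 0.314, 0.0909 and 0.323 CPM in muscle. Of 9 genes of oxygen and iron handling 4 were higher and 1 was lower (median 0.197), and without brain C 4 were higher and 2 lower (median -0.240). NGB, neuroglobin, was higher with 14.9, 19.3 and 40.3 CPM in brain, against 0.408, 0.394 and 0.614 CPM in muscle, and TF, the iron carrier transferrin that oligodendrocytes make, was higher with 159, 154 and 86.1 CPM in brain, against 6.16, 6.06 and 4.2 CPM in muscle. Branched-chain amino acid breakdown was lower in 6 of 17, or 7 without brain C, and higher in 1, BCAT1, the cytosolic transaminase of neurons, with 21, 19.2 and 3.42 CPM in brain, against 0.0943, 0.0606 and 0.0646 CPM in muscle.

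Housekeeping lists lay below the median of all genes, 0.173 with brain C and 0.075 without it, and moved with brain C. Of 22 cytosolic ribosomal protein genes 1 was higher and 2 were lower (median -0.368), and without brain C none was higher and 5 were lower (median -0.748). When 1 library was left out, 0 to 3 were higher and 0 to 5 lower. In brain C 21 of the 22 were above the mean of brain A and B, with a median log2 ratio of 0.955. RPLP0, a protein of the ribosomal stalk, had 315, 448 and 644 CPM in brain, against 1343, 1069 and 1064 CPM in muscle. RPL3 was the 1 that was higher, and its call ended without brain C. It had 322, 462 and 691 CPM in brain, against 167, 272 and 204 CPM in muscle. Its adjusted p was 0.0135 below 2-fold without brain C and 0.0574 to 0.127 without brain B or 1 of the muscle libraries, and the call of RPLP0 ended without brain B or muscle A (adjusted p = 0.0506 and 0.0646, edgeR). Ribosomal protein genes have many near-identical processed copies, and counts may have been split among them. Proteasome genes were lower in 4 of 17 (median -0.602), and in 8 without brain C (median -0.908). Of all genes tested 19.2% were lower, and 24.3% without brain C. PSMD11, a lid subunit, had 36.6, 35.2 and 21.9 CPM in brain, against 111, 103 and 110.4 CPM in muscle. Of 8 genes of interferon response and antigen display none was called by edgeR with all libraries and TMM scaling, 1 had an unadjusted p under 0.05, and 1 was called by DESeq2 and 0 by limma-voom. By edgeR 1 was higher without robust estimation, with the library letter as a block or without brain B, 2 were higher with library totals alone, and 4 were lower without brain C.

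Chaperones were lower in 6 of 12 and higher in 1. UNC45B, which folds muscle myosin, had 0.265, 0.273 and 0.276 CPM in brain, against 668, 680.2 and 631 CPM in muscle, and HSPB6, a small heat shock protein, had 17.1, 19.7 and 29.2 CPM in brain, against 479.7, 496 and 729 CPM in muscle. HSPH1 was the 1 that was higher, at 1.67 ± 0.35. Immediate early genes, which rise within minutes of a stimulus, were lower in 5 of 8. FOS had 29.7, 61.1 and 70.5 CPM in brain, against 1602, 1323 and 576 CPM in muscle, and ATF3 had 1.11, 1.16 and 0.524 CPM in brain, against 88.9, 166 and 120.4 CPM in muscle. NPAS4, the early gene that neuronal activity induces, was higher, with 2.52, 7.19 and 11.8 CPM in brain, against 0.0629, 0.0909 and 0.0323 CPM in muscle. Hypoxia and glucose stress genes were lower in 7 of 11. TXNIP, a brake on glucose uptake, had 30.7, 32 and 11.3 CPM in brain, against 884, 1341 and 1228 CPM in muscle. The clock list was mostly not called, with 1 higher and 3 lower of 13, and 2 higher and 4 lower without brain C. DBP, a clock output factor, was higher with 94.5, 94.3 and 251 CPM in brain, against 31.1, 29.6 and 22.1 CPM in muscle, and PER2 was lower with 4.83, 5.48 and 6.59 CPM in brain, against 15.7, 19.1 and 13.4 CPM in muscle.

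Splicing factors went both ways, 9 higher and 4 lower of 17, and 10 higher and 4 lower without brain C. NOVA1, a neuronal factor, had 34.6, 36.4 and 26.9 CPM in brain, against 3.3, 4.24 and 2.71 CPM in muscle, a log2 difference of 3.25 ± 0.34 (SE; adjusted p = 0.000388, edgeR). CELF5 had 38.4, 41.3 and 34.1 CPM in brain, against 0, 0 and 0.0323 CPM in muscle. RBM20, which splices titin, was lower with 0.451, 0.819 and 0.662 CPM in brain, against 101, 75.8 and 52 CPM in muscle, and RBM24, a muscle factor, was lower with 3.13, 2.87 and 0.965 CPM in brain, against 71.1, 93.7 and 72.6 CPM in muscle. PTBP1, which blocks neuronal exons, was lower at -1.07 ± 0.25, a call that ended without muscle B (adjusted p = 0.0555, edgeR). PTBP2, its neuronal counterpart, was called only without brain C, at 1.18 ± 0.11 (adjusted p = 6.61e-05, edgeR). Of 11 cell division genes 4 were higher and 2 lower, each of them under 10 CPM in every library. Without muscle A, B or C 2, 1 and 2 were higher and none was lower, and without brain A or B 1 and none were lower. MKI67, a protein of dividing cells, had 1.51, 0.546 and 0.937 CPM in brain, against 2.64, 2.06 and 4.07 CPM in muscle, and was lower, a call that ended without brain B or any 1 of the muscle libraries, at adjusted p of 0.0647 to 0.147 (edgeR). TYMS, which makes thymidylate, had 2.23, 2.32 and 2.4 CPM in brain, against 0.408, 0.545 and 0.42 CPM in muscle, and was higher.

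The calls that appeared or ended without brain C can be named. Among genes tested both ways, 677 were higher only without brain C and 928 lower only without it, against 243 higher only with it and 100 lower only with it. PRKACB, a catalytic subunit of protein kinase A, led the first group, with 120.1, 104 and 3.25 CPM in brain, against 13.4, 11.6 and 10.1 CPM in muscle. Its adjusted p was 0.0763 with brain C and 2.38e-06 without it (edgeR). PRKCE, USP46, YWHAB, TRIL and PPP1R9A followed, and in each of the 6 brain C lay below every muscle library and brain A and B above them all. MAPK12, a stress kinase of muscle, led the genes lower only without brain C, with 24.5, 19.3 and 169 CPM in brain, against 281, 307 and 327 CPM in muscle, followed by UCKL1, EIF3I, RNF123, TMEM134 and IMPDH2. In these 6 brain C was the highest brain library. The 12 genes of lowest adjusted p among those called only with brain C, 6 in each direction, had log2 differences of 1.01 to 1.18 in size with brain C, and each was below 2-fold without it. TLE5 had a log2 difference of 1.13 ± 0.26 with brain C and 0.98 ± 0.14 without it, HDAC5 1.18 ± 0.27 and 0.98 ± 0.13, and on the lower side HCFC1 -1.02 ± 0.24 and -0.94 ± 0.11. PI4KA, PTK2, C23H6orf89 and CD81, and FILIP1, FLOT2, GORASP2, RBM39 and TSPAN17, made up the rest. Of these 12 calls 11, all but that of HCFC1, also ended without 1 or more of the muscle libraries. Of the 1402 genes at least 4-fold lower in brain C, 328 were called higher and 118 lower with all libraries, and 606 higher and 243 lower without brain C. Of the 380 at least 4-fold higher in brain C, 143 were called higher and 17 lower with all libraries, and 124 higher and 84 lower without it. The genes lower in brain C were thus called higher in 23.4% and lower in 8.42% with all libraries, against 30.5% and 15.3% of all 11095 genes of this mean level in brain. Without brain C these shares were 43.2% and 17.3%, against 33.1% and 20.4% of the 11095. These genes were chosen by their level in brain C, so the shares are a description.

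Whether the tissue difference of sheep departed from that of the other species was tested on 13183 genes matched in all 3 species, as the log2 difference of brain minus muscle in sheep minus the mean of the same difference in cattle and goat. It was above that mean in 1058 genes (8.03%) and below it in 773 (5.86%), by edgeR with adjusted p under 0.05 and at least 2-fold. Without brain C 826 genes were above (6.18%) and 885 below (6.62%), and 671 and 649 of these were called in both. Leaving out a muscle library moved the upper count by more than 1.5 times, to 577 without muscle A, 599 without muscle B and 600 without muscle C, and the lower count to 500, 498 and 563. With library totals alone 1358 were above and 577 below, 70.2% of calls against 57.8% with TMM. Exon lengths of 257 of the matched genes tested (1.95%) included 3 or more of a neighbouring cattle gene in the sheep or the goat model, and 21 of the genes above (1.98%) and 24 of those below (3.10%) were among them.

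Genes that depart most included several such models. EFCAB7, a calcium-binding protein gene, had 78.6, 87.2 and 76.3 length-adjusted CPM in sheep brain, against 4520, 3280 and 3070 in sheep muscle. In cattle it had 6.55, 5.88 and 11.3 in brain, against 9.72, 7.51 and 6.75 in muscle. The sheep model of EFCAB7 holds 9 of the 16 exon lengths of cattle PGM1, its neighbour, which codes for phosphoglucomutase. MIGA1 had 38.9, 33.2 and 4.63 in sheep brain, against 782, 814 and 1040 in sheep muscle, and its sheep model holds 11 of the 14 exon lengths of NEXN, a gene of the sarcomere. FSTL3, the gene with the lowest adjusted p of those above, had 197, 216 and 342 in sheep brain, against 23.9, 33.9 and 22 in sheep muscle, and its sheep model holds 7 of the 9 exon lengths of PALM, a gene of neuronal membranes. FBP2, the muscle fructose bisphosphatase, had 17.9, 42.4 and 22.1 in goat brain, against 0, 0.127 and 0.155 in goat muscle, the reverse of sheep and cattle, and its goat model has 4 exon lengths. With all such models left out, 1034 genes were above and 749 below of 12932 tested, and the part of the models in the result of a single gene was not tested.

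**Figure D5:**
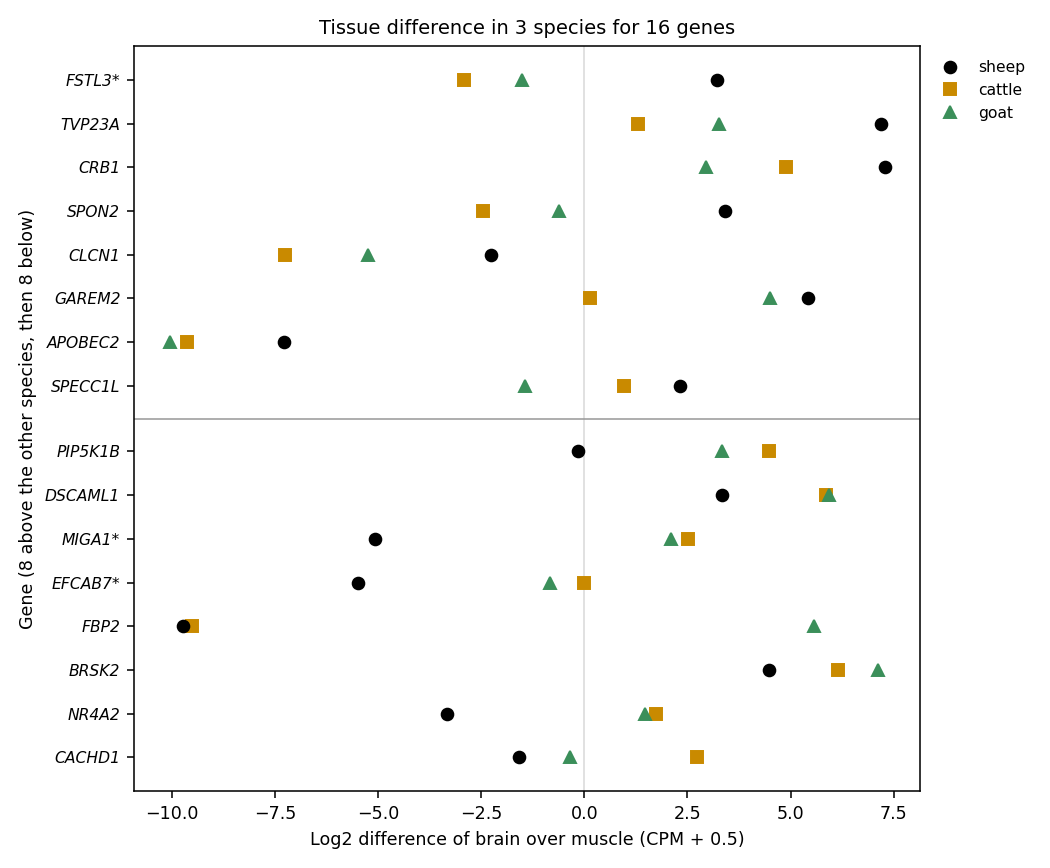
Log2 difference of brain over muscle (CPM + 0.5, means of 3 libraries) in sheep (circles), cattle (squares) and goat (triangles) for the 16 named genes, with the 8 above the mean of the other species over the 8 below. An asterisk after a symbol marks a sheep model that holds 3 or more exon lengths of a neighbouring cattle gene.

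Other departing genes had no exon lengths of a neighbour beyond 2. NR4A2, an early response gene and a factor of dopamine neurons, had 21.6, 34.3 and 27.3 length-adjusted CPM in sheep brain, against 313, 357 and 182 in sheep muscle. In cattle it had 18.3, 14.9 and 20.7 in brain, against 6.72, 4.49 and 3.89 in muscle, and in goat 14.3, 12.9 and 31.2 in brain, against 4.51, 11.4 and 3.99 in muscle. Sheep muscle lay above the muscle of both other species, and sheep brain overlapped goat brain. PIP5K1B, a phosphoinositide kinase, also departed through muscle, with 50.3, 41.2 and 51 in sheep muscle, against 3.3, 2.1 and 3.07 in cattle muscle and 3.41, 2.67 and 4.35 in goat muscle. CACHD1, a calcium channel partner, had 141, 124 and 132 in sheep muscle, against 7.9, 10.9 and 7.67 in cattle muscle and 24.7, 26.2 and 25.4 in goat muscle. TVP23A, a Golgi protein, had 85.7, 96.8 and 158 in sheep brain, against 0.21, 0.405 and 0.215 in sheep muscle. Cattle had 6.07, 6.52 and 6.75 in brain, against 2.81, 1.54 and 2.64 in muscle. In goat it had 35.9, 39.6 and 53.2 in brain, against 5.54, 3.68 and 2.74 in muscle. Its model is 642 bases long in sheep, 6139 in cattle and 1478 in goat. Levels of a tissue set between species therefore rest on these lengths, whose part was not tested. CLCN1, the chloride channel of muscle fibres, and APOBEC2, a muscle deaminase relative, departed through low brain levels that were higher in sheep, at 21.8, 20.5 and 44.3 and 4.94, 4.92 and 4.41, against 0.194, 0.18 and 0.164 and 0.115, 0.288 and 0.107 in cattle brain and 4.87, 2.1 and 2.27 and 0.435, 0.158 and 0.158 in goat brain. The other 6 genes were CRB1, SPON2, GAREM2 and SPECC1L above and DSCAML1 and BRSK2 below.

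Among called genes without a symbol, the largest folds belonged to ENSOARG00020001388 (chromosome 3, 147139399 to 147141906, plus strand), with 510.5, 503 and 230.3 CPM in brain and no count in muscle, and ENSOARG00020020263 (chromosome 7, 6052963 to 6054269, minus strand), with 302, 312 and 43.1 CPM in brain and no count in muscle. They were at least 13460-fold and at least 7216-fold higher. On the lower side ENSOARG00020020514 (chromosome 2, 142197300 to 142199648, plus strand) had 0, 0 and 0.11 CPM in brain, against 1932, 1923 and 1946 CPM in muscle. ENSOARG00020010502 (chromosome 15, 18901675 to 18901770, minus strand) had 0.0265, 0.114 and 0.11 CPM in brain, against 3104, 2068 and 2501 CPM in muscle, on a model of 96 bases. Coordinates are those of the sheep count files, whose genome build is not given in the sources used here.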

How the data were processed

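The deposited files hold whole-number read counts per gene, 1 library per file, from RNA captured on oligo(dT) beads. The authors trimmed reads with Trimmomatic 0.39, aligned them with STAR 2.7.6 and counted them with featureCounts, per the submitters' processing notes. Neither the version of featureCounts and its strand setting nor the sheep genome build is given in the sources used here, so that overlapping and antisense genes cannot be told apart and counts of near-identical copies are uncertain.

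Counts of the 6 sheep libraries, and of all 18 libraries in the comparison of species, were tested with edgeR 4.0.16 (R 4.3.3) by robust quasi-likelihood after filterByExpr and TMM scaling, with Benjamini-Hochberg adjustment over all genes tested. A call needed an adjusted p under 0.05 and a 2-fold difference. Errors of log2 differences are approximate standard errors, the size of the difference divided by the square root of the F statistic of its test. The ratios to brain A and B carry a pseudocount of 1 CPM, and the correlations use log2(CPM + 0.5) for genes with at least 10 counts over the libraries. In the comparison of species an offset carried the exonic length of the gene in its species. Exon lengths and gene order matched the genes of sheep and goat with those of cattle, and cattle genes took their symbols from the RefSeq gene table of assembly ARS-UCD2.0 by position. A strict first pass of matching was followed by a looser second pass. Of 1525 first-pass sheep matches held out, 1511 were found again by the second pass, 99.7% of them with the same partner. The 9166 of 16795 sheep matches made only in the second pass were not checked this way, and neither were the cattle symbols.

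Alternatives used other scalings, filters and thresholds, DESeq2 1.42.0 and limma-voom (limma 3.58.1), the library letter as a block, and 1 library left out in turn. The genes named were chosen by fixed ranks of level, fold or adjusted p within lists of genes, and the comparison, the lists and the alternatives were chosen with earlier results of these data known. One alternative, which leaves out gene models that hold exon lengths of a neighbour, was added after the results of the comparison of species were seen. Totals of 25162316 to 46302643 counts set the floor of each library, and the intervals of ratios cover counting error only. Some genes are not reported here.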

Additional observations from a re-analysis of the deposited data

Results flagged for a closer look

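The 16 genes below departed from the other species in how far brain stood from muscle in sheep, by edgeR's test of that difference itself with adjusted p under 0.05. Values are the log2 difference of brain minus muscle in sheep minus the mean of the same difference in cattle and goat. Above the other species, TVP23A stood at 6.22, FSTL3 at 5.99, SPON2 at 5.48 and CLCN1 at 5.02. CRB1 stood at 4.38, APOBEC2 at 4.17, GAREM2 at 3.91 and SPECC1L at 3.47. Below the other species, FBP2 stood at -8.77, MIGA1 at -7.46, DSCAML1 at -6.02 and NR4A2 at -5.05. EFCAB7 stood at -5.04, PIP5K1B at -4.28, BRSK2 at -3.48 and CACHD1 at -2.82. The sheep models of FSTL3, MIGA1 and EFCAB7 hold exon lengths of a neighbouring cattle gene, and FBP2 differed from goat and not from cattle (adjusted p = 0.174 against cattle alone). GAREM2 was not called against goat alone (adjusted p = 0.105). The goat model of SPECC1L is 309 bases long, against 3560 in sheep and 4930 in cattle. The sheep model of TVP23A is 642 bases long, against 6139 in cattle and 1478 in goat. The cattle model of BRSK2 shares 1 of its 6 exon lengths with the sheep model. The part of these models in the values was not tested.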

How the results depend on the processing

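The numbers of genes called within sheep stayed within 1.5 times under 10 of the alternatives to the scaling, filter, tool, block and threshold. Library totals alone gave 7102 higher and 1414 lower, and a minimum log2 difference of 2 gave 3410 higher and 1753 lower. Leaving out 1 library in turn gave 3433 to 5116 higher and 2224 to 3928 lower. In the comparison of species, with 1058 genes above and 773 below, 442 were above and 329 below with the stricter matches (6310 genes tested), and 637 above and 406 below against goat alone. Leaving out 1 library gave 577 to 1497 above and 498 to 885 below. The correlations of brain C with brain A and B over genes of at least 1 CPM were 0.719 and 0.724. Leaving out mitochondrial genes was not run for the comparison of species, because none of them was matched.

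The letters were not taken to pair the libraries. The deviations of same-lettered brain and muscle libraries from their group means correlated at 0.125 for A, 0.106 for B and 0.0835 for C, and each library correlated best with its own letter, which is a hint from the data and not from the design. With the letter as a replicate block 3922 genes were higher and 2841 lower in sheep brain, and 483 were above and 531 below in the comparison of species.

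Of the genes named, 3 changed sign. The log2 difference of NEUROD2, which was not called, was -0.221 to 0.579 when 1 library was left out, below 0 without brain C (-0.112) and without muscle C. That of SAP25, not called either, was -0.733 with limma-voom, -0.811 with the replicate block and -2.02 to 1.06 when 1 library was left out, below 0 without brain C. FBP2, called below the other species, was at 1.75 against cattle alone. Without brain C 192 of 229 named genes kept their side of the threshold and their direction, and without muscle A, B or C 204, 210 and 204 did.

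The medians of 3 lists near 0 changed sign. That of the oligodendrocyte precursors, 0.221, was -0.093 with limma-voom, -0.023 with the block and -0.007 without brain A. That of oxygen and iron handling, 0.197, was -0.240 without brain C, and that of cell division, 0.162, was -0.019 without muscle B. Precision is limited by the 3 libraries of each tissue, with brain C apart from the others. Genes under about 0.1 CPM are near the level of 3 counts.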
